A study of Homo sapiens with 12 samples.

Results

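Extracellular vesicles (EV) released by cardiomyocytes at day 35 of differentiation (CMm-EV, labelled mature) were compared with those released at day 15 (CMi-EV, labelled immature). The libraries were chosen by their group labels, 3 of CMm-EV and 3 of CMi-EV, which make up 6 of the 12 libraries of the series. The series sequenced small RNA of EV preparations from an established human induced pluripotent stem cell (hiPSC) line, iPS(IMR90)-4, and its cardiac derivatives, and the comparison asks how the RNA carried by cardiomyocyte EV differs between an early and a late culture. The 3 libraries of a group are EV preparations from independent cultures, with EV separated from conditioned medium on a density gradient. Whether a day 15 and a day 35 library come from the same culture is not known here. Both groups come from this 1 line, which is known to have been reprogrammed with integrating lentiviral transgenes, LIN28 among them, and in both the medium had been conditioned for 48 h. CMi-EV came from maintenance medium at day 15 and CMm-EV from maturation medium at day 35, so that day, medium and age of the culture cannot be told apart. Counts on miRNA were 2163511, 1686611 and 1364736 in CMi-EV 1 to 3 and 984868, 6272456 and 5072950 in CMm-EV 1 to 3. CMm-EV 1 was thus the shallowest of the 6 and CMm-EV 2 the deepest.

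A miRNA guides silencing complexes to messenger RNAs mainly through its seed, the bases near its 5′ end, so that miRNAs with the same seed can share targets. The let-7 family accumulates as cells leave the embryonic state and is held back in pluripotent cells by the LIN28 proteins, whereas the miR-302/miR-367 and miR-371 to miR-373 clusters are transcribed in pluripotent cells. Cardiomyocytes are rich in the myomiRs, miRNAs encoded within or near muscle genes such as those of myosin heavy chains, and EV carry part of the RNA of the cell that sheds them.

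CMm-EV carried more let-7, miR-181, miR-125a and miR-143, and less of the miR-302 cluster, miR-371a-5p, miR-182/miR-183, miR-363-3p, miR-92a-3p and miR-375-3p than CMi-EV. Of 247 tested miRNA, 41 were differentially expressed (DE), which is 16.6%, and by direction 6.48% were higher and 10.1% lower in CMm-EV. A miRNA counts as DE here when the FDR of edgeR's quasi-likelihood test, corrected over the 247 by the method of Benjamini and Hochberg, is 0.05 or less and its log2 fold change is 1 or more in size. Without CMm-EV 2, 20 miRNA were DE, 18 of them among the 41. Leaving out any of the 6 libraries kept the call of 16: let-7a-5p, let-7c-5p, let-7d-5p, let-7e-5p, let-7f-5p, miR-181a-5p and miR-125a-5p, which were higher, and miR-302a-5p, miR-302b-3p, miR-302c-5p, miR-182-5p, miR-183-5p, miR-363-3p, miR-92a-3p, miR-130b-5p and miR-148a-3p, which were lower. Values are CPM within miRNA, scaled by TMM (trimmed mean of log ratios) factors over the 6 libraries so that a library need not sum to the same total, fold changes are CMm-EV over CMi-EV on the log2 scale, and errors of fold changes are SE. The median over the tested miRNA was -0.29, and it was -0.20 with DESeq2 size factors and -0.91 with library size only, so changes are read against it. None of the 41 changed direction under these scalings, but with library size only 10 miRNA were higher and 42 lower in place of 16 and 25. A miRNA was tested when it held at least 5 CPM in all 3 libraries of 1 group, a filter that depends on the groups compared, and 1 of the higher and 6 of the lower had no count in the other group. Any DE miRNA under 5 CPM in a library of its lower group was tested only through the group where it is high. With no filter 46 of 654 miRNA were DE, 30 of them among the 41. A miRNA that is not DE is not thereby shown to be equal between groups.

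**Figure D1:**
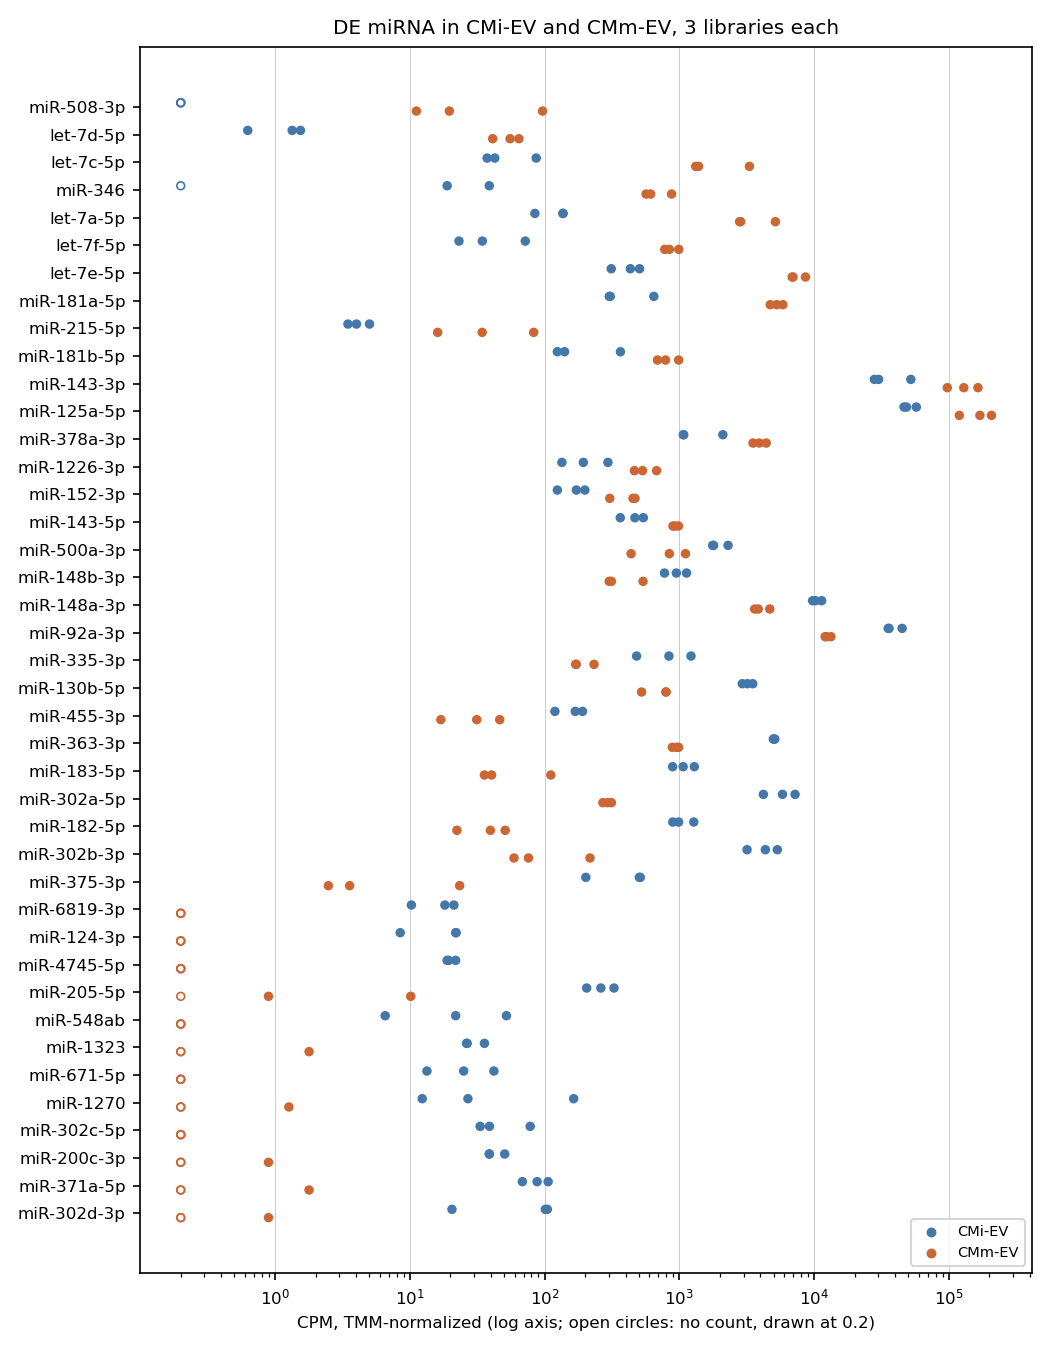
CPM (log axis) of the 41 DE miRNA in each library, CMi-EV in blue and CMm-EV in orange, ordered by fold change, with open circles for libraries without a count. The groups do not overlap in any line, but neither do they in 110 of the 247 tested miRNA (44.5%), and the rule for DE favours such miRNA, so that nothing is read from it.

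RefSeq (GRCh38.p14) gave a mature sequence for 217 of the 247 tested miRNA and for 40 of the 41 DE miRNA, all but miR-124-3p. These 40 have 31 distinct seeds, and 14 of them share their seed with another DE miRNA. Capitals mark the seed, bases 2 to 8, and sequences run 5′ to 3′. The let-7 miRNA are shown first because they are the largest set of DE miRNA with 1 seed, and all 5 were higher in CMm-EV.
let-7a-5p: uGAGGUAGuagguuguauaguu
let-7c-5p: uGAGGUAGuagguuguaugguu
let-7d-5p: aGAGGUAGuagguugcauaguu
let-7e-5p: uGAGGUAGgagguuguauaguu
let-7f-5p: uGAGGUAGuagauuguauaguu

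The next sets show the other seeds shared by DE miRNA. The miR-181 pair was higher, and the pairs of the miR-302 cluster and of miR-92a-3p with miR-363-3p were lower in CMm-EV.
miR-181a-5p: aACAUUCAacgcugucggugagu
miR-181b-5p: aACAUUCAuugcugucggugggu
miR-302b-3p: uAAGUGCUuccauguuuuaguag
miR-302d-3p: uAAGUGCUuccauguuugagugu
miR-92a-3p: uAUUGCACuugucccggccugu
miR-363-3p: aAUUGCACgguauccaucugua

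The miR-148/miR-152 seed is shown because it was the 1 seed with DE miRNA in both directions, miR-152-3p higher and the others lower.
miR-148a-3p: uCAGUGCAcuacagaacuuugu
miR-148b-3p: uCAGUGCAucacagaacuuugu
miR-152-3p: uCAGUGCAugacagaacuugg

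The last set holds single miRNA that carry other results, namely the 2 most abundant DE miRNA (miR-125a-5p and miR-143-3p), the 5p arms of the miR-302 cluster, miR-371a-5p, and the pair from the miR-183/miR-96/miR-182 cluster. The 5p arms of miR-302a and miR-302c have other seeds than the 3p arms of their cluster.
miR-125a-5p: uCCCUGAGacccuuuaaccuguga
miR-143-3p: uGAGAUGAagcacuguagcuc
miR-302a-5p: aCUUAAACguggauguacuugcu
miR-302c-5p: uUUAACAUggggguaccugcug
miR-371a-5p: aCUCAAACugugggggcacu
miR-182-5p: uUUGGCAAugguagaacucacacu
miR-183-5p: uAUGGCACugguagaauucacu

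Let-7 miRNA repress growth and cell cycle genes and mark differentiated cells. Of the 7 tested members of the family, which are the 7 tested miRNA with the seed printed first, 5 were higher and 0 lower in CMm-EV, beside 16.6% DE of all tested miRNA. The median log2 fold change of the 7 was 4.33 against -0.29 over all tested miRNA. Their CPM summed to 674, 613 and 688 CPM in CMi-EV and 12147, 12294 and 18506 CPM in CMm-EV, so that the mean sum in CMm-EV was 21.7 times that in CMi-EV and every CMm-EV library lay far above every CMi-EV library. Let-7e-5p, the most abundant, was read at 433, 313 and 507 CPM in CMi-EV and 6878, 6979 and 8634 CPM in CMm-EV (log2 fold change 4.17 ± 0.22, FDR 5.52e-05). For let-7a-5p the values were 137, 137 and 84.8 CPM in CMi-EV and 2799, 2852 and 5161 CPM in CMm-EV (log2 fold change 4.91 ± 0.31, FDR 0.000191). Let-7c-5p had 37.5, 86.8 and 42.7 CPM in CMi-EV and 1389.7, 1324 and 3312 CPM in CMm-EV (log2 fold change 5.17 ± 0.48, FDR 0.00101). In these 3 miRNA the CMi-EV libraries differed by less than 3-fold from each other while each CMm-EV library exceeded them all by more, and all 3 were highest in CMm-EV 3. Let-7f-5p stood at 23.2, 72 and 34.6 CPM in CMi-EV and 779.9, 844 and 991 CPM in CMm-EV (log2 fold change 4.33 ± 0.43, FDR 0.0011). Let-7d-5p, with 4, 3 and 1 counts in the CMi-EV libraries, stood at 1.55, 1.34 and 0.628 CPM in CMi-EV and 55.5, 64.6 and 41.2 CPM in CMm-EV (log2 fold change 5.43 ± 0.78, FDR 0.00731). It was tested only through the CMm-EV libraries, which fixes its direction. Let-7b-5p and let-7g-5p were not DE, with log2 fold changes of 3.64 ± 1.29 with an FDR of 0.15 and 3.99 ± 1.33 with an FDR of 0.132. Family members differ by few bases, so reads may be shared between them and each member's own value is less certain than the family sum.

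LIN28A and LIN28B, which bind let-7 precursors and block their processing, were read only as fragments in the gencode class. LIN28A had 48, 10 and 2 counts in CMi-EV 1 to 3 and LIN28B had 22 counts in CMi-EV 1, and neither had a count in CMm-EV. Both were too low to be tested, the counts do not separate LIN28A from its transgene, and their part in the let-7 result was not tested.

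DE let-7 miRNA come from several places in the genome (GRCh38). MIRLET7A1, MIRLET7F1 and MIRLET7D lie together on chromosome 9, 94175957 to 94178920, plus strand, and all 3 of their tested miRNA were higher in CMm-EV. MIR99B, MIRLET7E and MIR125A share chromosome 19, 51692612 to 51693339, plus strand, where let-7e-5p and miR-125a-5p were higher while miR-99b-5p, miR-99b-3p and miR-125a-3p were not DE. On chromosome 21, 16539089 to 16539911, plus strand, let-7c-5p was higher beside miR-99a-5p, whose log2 fold change was 0.22 ± 0.23 with an FDR of 0.539. On chromosome 11, 122146522 to 122152308, minus strand, a source of let-7a-5p lies beside MIR100, whose miR-100-5p was not DE. Members of a cluster can be processed from 1 primary transcript, and in the clusters of MIR99A and MIR99B let-7 differed between the EV groups by more on the log2 scale than the miR-99 member beside it, a difference between fold changes that was not tested. Let-7a-5p and let-7f-5p each come from several precursors, and the counts do not separate the copies.

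The miR-99/miR-100/miR-125 family dominated both groups. Its CPM summed to 434895, 331649 and 449263 CPM in CMi-EV and 478682, 807285 and 922471 CPM in CMm-EV. MiR-100-5p was the most abundant miRNA in all 6 libraries, at 197794, 140932 and 221242 CPM in CMi-EV and 206203, 369539 and 404429 CPM in CMm-EV (log2 fold change 0.81 ± 0.34, FDR 0.181), with overlapping groups. Of 9 tested members, 1 was higher and 0 lower, beside 16.6% DE of all tested miRNA, with a median of 0.42 that was -0.16 with library size only. MiR-125a-5p, a partner of let-7e in its cluster that targets LIN28A among others, was the member that rose, at 46513, 48454 and 57322 CPM in CMi-EV and 119539, 169895 and 206989 CPM in CMm-EV (log2 fold change 1.70 ± 0.26, FDR 0.00644). MiR-125b-5p, which has the same seed, was read at 31062, 34487 and 47809 CPM in CMi-EV and 43259.9, 53413 and 55138 CPM in CMm-EV and was not DE (log2 fold change 0.42 ± 0.23, FDR 0.282).

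The miR-302/miR-367 cluster, the main miRNA cluster of human pluripotent cells, went the other way. Of its 6 tested miRNA 4 were lower and 0 higher in CMm-EV, beside 16.6% DE of all tested miRNA, with a median log2 fold change of -4.89. Only miR-302a-5p and miR-302b-3p held 5 CPM in every library of both groups. MiR-302c-5p, miR-302d-3p, miR-302a-3p and miR-302c-3p were tested only through the CMi-EV libraries, which favours lower values in CMm-EV. The count and the median thus depend in part on the filter. The summed CPM of the cluster's miRNA was 12058, 11607 and 7739 CPM in CMi-EV and 537, 375 and 382 CPM in CMm-EV. MiR-302a-5p was its most abundant member, at 7227, 5824 and 4205 CPM in CMi-EV and 313, 271 and 293 CPM in CMm-EV (log2 fold change -4.30 ± 0.22, FDR 5.52e-05). MiR-302b-3p was read at 4349, 5339.7 and 3179.6 CPM in CMi-EV and 218, 76 and 59.3 CPM in CMm-EV (log2 fold change -5.20 ± 0.49, FDR 0.0011, or -5.97 without CMm-EV 1). Both were lower in every CMm-EV library than in any CMi-EV library but still present. MiR-302c-5p had 101, 175 and 53 counts in CMi-EV and no count in CMm-EV, which is at least 155-fold lower in CMm-EV, FDR 0.0127. MiR-302d-3p had 262, 46 and 167 counts in CMi-EV and 1, 0 and 0 counts in CMm-EV (pooled ratio of CMi-EV over CMm-EV 673, 95% counting interval 120.2 to 26635, FDR 0.0159), and its FDR was 0.0541 without CMm-EV 2 (1.33e-06 to 0.0541 over the alternatives). Bounds are taken against 3 counts over the group without a count, and bounds and counting intervals cover counting error only, since PCR copies are not independent molecules. Where a call ended without 1 library, the FDR without it is given with the range over the alternatives tried, apart from the fit that pairs libraries by replicate number. The other members, miR-302a-3p (-2.96 ± 1.24 with an FDR of 0.199) and miR-302c-3p (-4.58 ± 1.39 with an FDR of 0.112), were not DE. The 4 precursors lie within 554 bp on chromosome 4, 112648004 to 112648557, minus strand, in exons of MIR302CHG. In EV of a whole culture, fewer vesicles from cells of 1 type and less of an RNA per vesicle cannot be told apart.

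Other miRNA of pluripotent cells were also lower. MiR-371a-5p, from the cluster of miR-371 to miR-373 on chromosome 19, had 275, 197 and 109 counts in CMi-EV and 2, 0 and 0 counts in CMm-EV (pooled ratio of CMi-EV over CMm-EV 412, 95% counting interval 113 to 3406, FDR 0.0216), and it was the 1 tested miRNA of its cluster. MiR-1323, the 1 tested miRNA of the primate-specific chromosome 19 cluster (C19MC), had 69, 59 and 57 counts in CMi-EV and 2, 0 and 0 counts in CMm-EV (pooled ratio of CMi-EV over CMm-EV 131, 95% counting interval 35.8 to 1090.1, FDR 0.0457). Both were close to absent from CMm-EV, with all their CMm-EV counts in CMm-EV 1. They were tested only through the CMi-EV libraries, which fixes their direction. The FDR of miR-371a-5p was 0.0529 without CMi-EV 1, 0.0574 without CMi-EV 2 and 0.0541 without CMm-EV 2 (1.55e-06 to 0.0574 over the alternatives). For miR-1323 it was 0.102 without CMi-EV 1, 0.104 without CMi-EV 2, 0.087 without CMi-EV 3, 0.118 without CMm-EV 2 and 0.121 without CMm-EV 3 (0.000253 to 0.354 over the alternatives).

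The miR-17-92 cluster and its paralogs promote proliferation, and together they had 2 DE among 12 tested miRNA, beside 16.6% of all tested. In miR-17-92, 0 higher and 1 lower of 5 tested miRNA were DE with a median of -1.62, and in miR-106a-363 the count was 0 higher and 1 lower of 2 tested with a median of -2.38. In miR-106b-25 it was 0 higher and 0 lower of 5 tested with a median of -1.03. MiR-92a-3p was by far the most abundant of them, at 35962, 44998 and 35470 CPM in CMi-EV and 12076, 13330.3 and 12348 CPM in CMm-EV (log2 fold change -1.62 ± 0.17, FDR 0.00101). MiR-363-3p, its seed partner on the X chromosome, was read at 4986, 5043 and 5114 CPM in CMi-EV and 887, 949 and 988 CPM in CMm-EV (log2 fold change -2.42 ± 0.14, FDR 5.52e-05). Both sets of 3 libraries were tight and well apart. MiR-20a-5p just missed the threshold at 254, 343 and 144 CPM in CMi-EV and 75.2, 67.9 and 79 CPM in CMm-EV (log2 fold change -1.74 ± 0.47, FDR 0.0509), and miR-25-3p, with the same seed as miR-92a-3p, was at 797, 579.6 and 722 CPM in CMi-EV and 180.0, 377 and 473 CPM in CMm-EV (log2 fold change -1.02 ± 0.38, FDR 0.136). MiR-92b-3p, the last tested miRNA with that seed, had a log2 fold change of -0.09 ± 0.23 with an FDR of 0.825. All 4 tested miRNA of MIR363, MIR92A2, MIR19B2 and MIR106A, on chromosome X, 134169378 to 134170278, minus strand, had negative log2 fold changes, of which those of miR-106a-5p (-2.33) and miR-19b-3p (-2.46) were not DE. MiR-92a-3p and miR-19b-3p are also encoded in miR-17-92, and the counts do not separate the copies.

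The miR-183/miR-96/miR-182 cluster, known from sensory organs and stem cells, was lower in 2 of 3 tested members, beside 16.6% DE of all tested miRNA. MiR-182-5p was read at 1280.2, 989 and 895 CPM in CMi-EV and 22.4, 39.6 and 51.1 CPM in CMm-EV (log2 fold change -4.79 ± 0.35, FDR 0.000328). MiR-183-5p followed with 1293, 1068 and 892 CPM in CMi-EV and 35.8, 40.5 and 111 CPM in CMm-EV (log2 fold change -4.11 ± 0.47, FDR 0.00199, or -4.83 without CMm-EV 3). The remaining member, miR-96-5p, had 36.7, 45.6 and 22 CPM in CMi-EV and 0, 12.7 and 7.3 CPM in CMm-EV and was not DE (log2 fold change -2.33 ± 1.22, FDR 0.282). Together the cluster's miRNA summed to 2609.6, 2102 and 1836 CPM in CMi-EV and 58.2, 92.8 and 169.7 CPM in CMm-EV.

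The miR-200 family, which maintains epithelial junctions by repressing ZEB1 and ZEB2, had 0 higher and 1 lower of 2 tested, beside 16.6% DE of all tested miRNA. Both were tested only through the CMi-EV libraries, which favours lower values in CMm-EV, so nothing is read from the count. The family's miRNA summed to 202, 214 and 283 CPM in CMi-EV and 5.37, 0 and 17.8 CPM in CMm-EV. MiR-200c-3p had 131, 87 and 62 counts in CMi-EV and 1, 0 and 0 counts in CMm-EV (pooled ratio of CMi-EV over CMm-EV 397, 95% counting interval 70.6 to 15723, FDR 0.0159), and its FDR was 0.0541 without CMm-EV 2 (4.8e-07 to 0.0815 over the alternatives). MiR-200b-3p, with the same seed, was not DE at 151, 132 and 89.9 CPM in CMi-EV and 4.48, 0 and 8.25 CPM in CMm-EV (log2 fold change -4.88 ± 1.30, FDR 0.0721). MiR-205-5p, another epithelial miRNA, was read at 262, 328 and 205 CPM in CMi-EV and 0.895, 10.2 and 0 CPM in CMm-EV (log2 fold change -6.05 ± 1.26, FDR 0.0383), and its FDR was 0.0616 without CMi-EV 1, 0.0878 without CMi-EV 2 and 0.117 without CMm-EV 1 (9.7e-11 to 0.117 over the alternatives). Without CMm-EV 2 its log2 fold change was -9.57, so its size is uncertain. Like the miR-200 miRNA, miR-205-5p was tested only through the CMi-EV libraries, as was miR-375-3p. MiR-375-3p, abundant in pancreatic islets and endoderm, was read at 505, 513 and 202 CPM in CMi-EV and 3.58, 2.49 and 23.5 CPM in CMm-EV (log2 fold change -5.34 ± 0.88, FDR 0.0159), with an FDR of 0.0555 without CMm-EV 1 (1.1e-12 to 0.0555 over the alternatives). It was the 1 DE member of 5 tested endoderm-linked miRNA, beside 16.6% of all tested miRNA. The median of these 5 was -1.26. The most abundant of that list, miR-192-5p, overlapped between groups at 2504, 2154 and 4055 CPM in CMi-EV and 1528, 1483 and 2500.4 CPM in CMm-EV (log2 fold change -0.66 ± 0.31, FDR 0.228). MiR-122-5p, the main miRNA of hepatocytes, was highest in CMi-EV 3 and CMm-EV 3, at 266, 229 and 1745 CPM in CMi-EV and 461, 210.5 and 1048 CPM in CMm-EV (log2 fold change -0.38 ± 0.91, FDR 0.793). MiR-483-5p, from the IGF2 locus, was read at 239, 122 and 2718 CPM in CMi-EV and 0, 93.4 and 38.7 CPM in CMm-EV and was not DE (log2 fold change -4.51 ± 1.52, FDR 0.147). It was high in CMi-EV 3, without which its log2 fold change was -2.05.

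The miR-181 family is known from lymphocytes and from mitochondrial regulation in the heart. It had 2 higher and 0 lower of 5 tested, beside 16.6% DE of all tested miRNA, and a median of 1.97. MiR-181a-5p was read at 307, 302 and 647 CPM in CMi-EV and 5866, 5288 and 4728 CPM in CMm-EV (log2 fold change 3.66 ± 0.32, FDR 0.000692), with all CMm-EV libraries far above CMi-EV. MiR-181b-5p, its seed partner, was read at 125, 141 and 366 CPM in CMi-EV and 989, 689 and 789.7 CPM in CMm-EV (log2 fold change 1.97 ± 0.45, FDR 0.0312), and its FDR was 0.0521 without CMi-EV 1, 0.0603 without CMi-EV 2, 0.0952 without CMm-EV 1 and 0.0626 without CMm-EV 2 (9.32e-05 to 0.393 over the alternatives). In both, CMi-EV 3 was the highest of the CMi-EV libraries. MIR181A1 and MIR181B1 lie on chromosome 1, 198858873 to 198859153, minus strand, and miR-181a-3p from the same hairpin was not DE, with no count in CMi-EV 1 and 2 (log2 fold change 3.13 ± 1.90, FDR 0.353). MiR-181a-5p is also encoded by MIR181A2 on chromosome 9, whose other arm, miR-181a-2-3p, was not DE (log2 fold change 0.50 ± 0.48, FDR 0.523), and the counts do not separate the copies.

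In the lists of miR-143/miR-145 and of miR-378 and miR-26, miR-143-3p, miR-143-5p and miR-378a-3p were higher in CMm-EV. MiR-143-3p, encoded in an exon of CARMN and known from smooth muscle and the developing heart, was read at 30120.1, 27994 and 52182 CPM in CMi-EV and 97337, 129000 and 164392 CPM in CMm-EV (log2 fold change 1.82 ± 0.32, FDR 0.0129), and its FDR was 0.0504 without CMm-EV 2 (1.93e-14 to 0.0504 over the alternatives). Its other arm, miR-143-5p, was read at 365, 541 and 468 CPM in CMi-EV and 927, 986 and 898 CPM in CMm-EV (log2 fold change 1.03 ± 0.23, FDR 0.0252) and had an FDR of 0.0526 without CMm-EV 1 and 0.0847 without CMm-EV 2 (0.000357 to 0.329 over the alternatives). MiR-145-5p from the same cluster overlapped between groups, at 452, 443 and 488 CPM in CMi-EV and 455, 632 and 588 CPM in CMm-EV (log2 fold change 0.28 ± 0.24, FDR 0.479), and its fold change was negative with library size only. MiR-145-3p was not DE either (log2 fold change -0.53 ± 0.26, FDR 0.237). Thus 2 of the 4 tested of miR-143/miR-145 were higher, beside 16.6% DE of all tested miRNA, with a median of 0.65. MiR-378a-3p, encoded in an intron of PPARGC1B, a coactivator of mitochondrial metabolism, was read at 1079, 1071 and 2104 CPM in CMi-EV and 3922, 3522 and 4412 CPM in CMm-EV (log2 fold change 1.48 ± 0.29, FDR 0.0165), with an FDR of 0.0526 without CMm-EV 1 and 0.0535 without CMm-EV 2 (1.41e-05 to 0.0879 over the alternatives). It was the 1 DE member of 5 tested in the list of miR-378 and miR-26, beside 16.6% of all tested miRNA. The median of that list, 0.49, was -0.06 with library size only. MiR-26a-5p, which was not DE, was read at 48333, 45218 and 56997 CPM in CMi-EV and 66682, 73076 and 71534 CPM in CMm-EV (log2 fold change 0.49 ± 0.18, FDR 0.136).

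The miR-148/miR-152 seed was split. MiR-148a-3p was read at 11377, 10233 and 9749 CPM in CMi-EV and 3624, 3851 and 4689 CPM in CMm-EV (log2 fold change -1.37 ± 0.16, FDR 0.00158), and miR-148b-3p at 777, 1131 and 951 CPM in CMi-EV and 313, 302 and 538 CPM in CMm-EV (log2 fold change -1.31 ± 0.31, FDR 0.0312). MiR-152-3p, encoded in COPZ2, was read at 125, 172 and 199 CPM in CMi-EV and 469, 305 and 453 CPM in CMm-EV (log2 fold change 1.31 ± 0.35, FDR 0.0457). MiR-148a-3p made up most of the sum of the 3, which was 12278, 11536 and 10899 CPM in CMi-EV and 4406, 4457 and 5680.3 CPM in CMm-EV and thus lower in every CMm-EV library. The FDR of miR-148b-3p was 0.0574 without CMi-EV 2, 0.0933 without CMm-EV 1 and 0.0985 without CMm-EV 2 (0.00208 to 0.0985 over the alternatives). That of miR-152-3p was 0.0918 without CMi-EV 1, 0.0878 without CMi-EV 2, 0.102 without CMm-EV 1, 0.0626 without CMm-EV 2 and 0.143 without CMm-EV 3 (0.00125 to 0.355 over the alternatives).

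None of 8 tested myomiRs was DE by edgeR, and their median of 0.53 was 0 to 2 decimals with library size only. MiR-1-3p, the main miRNA of heart and skeletal muscle, spanned 43485, 61380.5 and 15043 CPM in CMi-EV and 23342, 36852 and 163550 CPM in CMm-EV (log2 fold change 0.90 ± 0.80, FDR 0.484), so that CMm-EV 3 was the highest and CMi-EV 3 the lowest of the 6. Without CMm-EV 3 its log2 fold change was -0.41. MiR-499a-5p, encoded in the myosin gene MYH7B, was read at 0, 11.6 and 81.1 CPM in CMi-EV and 177, 333 and 351 CPM in CMm-EV (log2 fold change 3.22 ± 1.46, FDR 0.237). MiR-208b-3p, encoded in MYH7, had 0, 0 and 51 counts in CMi-EV and 62, 325 and 294 counts in CMm-EV (log2 fold change 2.77 ± 1.83, FDR 0.39). In both the CMm-EV libraries lay above those of CMi-EV, where some had no count, and neither passed the test. MiR-133a-3p and miR-208a-3p, the latter encoded in the myosin gene MYH6, had log2 fold changes of 0.47 ± 0.21 with an FDR of 0.199 and -0.23 ± 0.28 with an FDR of 0.598.

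The remaining DE miRNA are mostly in none of the named lists. MiR-346, from an intron of GRID1, was read at 18.9, 38.9 and 0 CPM in CMi-EV and 877, 567 and 613 CPM in CMm-EV (log2 fold change 5.14 ± 1.09, FDR 0.0383), and its FDR was 0.0841 without CMi-EV 1, 0.0574 without CMi-EV 2, 0.117 without CMm-EV 1 and 0.0865 without CMm-EV 2 (1.85e-17 to 0.117 over the alternatives). MiR-215-5p, known from intestine and p53 responses, was read at 3.48, 4.02 and 5.03 CPM in CMi-EV and 16.1, 34.5 and 83.1 CPM in CMm-EV (log2 fold change 3.41 ± 0.86, FDR 0.0462), and its FDR was 0.147 without CMi-EV 1, 0.147 without CMi-EV 2, 0.0982 without CMi-EV 3, 0.0956 without CMm-EV 2 and 0.168 without CMm-EV 3 (0.00271 to 0.354 over the alternatives). Its seed partner miR-192-5p did not follow it. MiR-1226-3p, from an intron of DHX30, was read at 135, 194 and 295 CPM in CMi-EV and 678, 534 and 464 CPM in CMm-EV (log2 fold change 1.43 ± 0.36, FDR 0.0448), with an FDR of 0.0811 without CMi-EV 1, 0.0898 without CMi-EV 2, 0.114 without CMm-EV 1, 0.0985 without CMm-EV 2 and 0.0553 without CMm-EV 3 (0.00152 to 0.207 over the alternatives). MiR-508-3p, from a testis-associated cluster of the X chromosome, was at least 52.7-fold higher in CMm-EV, FDR 0.0312, with no count in CMi-EV and 108, 54 and 62 counts in CMm-EV. These are 96.7, 11.2 and 19.7 CPM, highest in the shallow CMm-EV 1, so the size of this bound is uncertain. The FDR of miR-508-3p was 0.0529 without CMi-EV 1, 0.0615 without CMi-EV 2 and 0.0541 without CMm-EV 2 (3.81e-05 to 0.0717 over the alternatives). MiR-346, miR-215-5p and miR-508-3p were tested only through the CMm-EV libraries, and miR-508-3p stayed DE with no filter. MiR-506-3p of the same cluster was not DE (log2 fold change -0.07 ± 1.38, FDR 0.985).

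Several of the lower miRNA were scarce in CMi-EV and had no count in CMm-EV, so that they were tested only through the CMi-EV libraries. MiR-671-5p was at least 76.5-fold lower, miR-548ab at least 70.4-fold, miR-4745-5p at least 60.9-fold and miR-6819-3p at least 50.5-fold. MiR-124-3p, the main neuronal miRNA and the 1 tested of the neural list (fitted log2 fold change -8.50, or -5.71 at its bound), was at least 52.4-fold lower, with 57, 19 and 35 counts in CMi-EV and no count in CMm-EV. With no filter none of these 5 was DE, with FDRs of 0.1001 to 0.354. Without CMm-EV 2 the FDR was 0.0541 for miR-671-5p, miR-124-3p and miR-6819-3p and 0.0504 for miR-4745-5p, against at most 0.0174 with all libraries (8.36e-07 to 0.354 over the alternatives). For miR-548ab it was 0.0574 without CMi-EV 2, 0.0534 without CMm-EV 1 and 0.0669 without CMm-EV 2 (4.99e-05 to 0.111 over the alternatives). MiR-1270 was read at 12.4, 165 and 27 CPM in CMi-EV and 0, 0 and 1.27 CPM in CMm-EV (log2 fold change -7.05 ± 1.65, FDR 0.0451), high in CMi-EV 2, and its FDR was 0.0921 without CMi-EV 2, 0.129 without CMm-EV 1 and 0.0996 without CMm-EV 2 (0.000272 to 0.129 over the alternatives). Its log2 fold change was -5.31 without CMi-EV 2 and -10.39 without CMm-EV 3, so its size is uncertain.

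Among the more abundant lower miRNA, miR-130b-5p was read at 3203, 3506 and 2932 CPM in CMi-EV and 525, 795 and 798 CPM in CMm-EV (log2 fold change -2.19 ± 0.21, FDR 0.000761). MiR-335-3p, encoded in an intron of the imprinted gene MEST, was read at 482, 838 and 1221 CPM in CMi-EV and 170.1, 172 and 233 CPM in CMm-EV (log2 fold change -2.14 ± 0.37, FDR 0.0129), with an FDR of 0.0541 without CMm-EV 2 (1.01e-05 to 0.0541 over the alternatives), while miR-335-5p was not DE (log2 fold change -2.31 ± 1.10, FDR 0.243, list median -2.23). MiR-500a-3p was read at 2299, 1766 and 1797 CPM in CMi-EV and 439, 844 and 1111 CPM in CMm-EV (log2 fold change -1.29 ± 0.34, FDR 0.0457). It was the 1 DE miRNA of 5 tested miRNA that RefSeq placed in a cluster in CLCN5 on the X chromosome, beside 16.6% of all tested. That count leaves out tested miRNA without a RefSeq sequence, among them miR-501-3p (log2 fold change -1.31 ± 0.42, FDR 0.0886). The FDR of miR-500a-3p was 0.0874 without CMi-EV 1, 0.0574 without CMi-EV 2, 0.0444 without CMm-EV 1 where the log2 fold change was -0.99 and 0.11 without CMm-EV 2 (0.00115 to 0.11 over the alternatives). MiR-455-3p, from an intron of COL27A1, was read at 191, 119 and 169 CPM in CMi-EV and 17, 46.5 and 31.4 CPM in CMm-EV (log2 fold change -2.33 ± 0.60, FDR 0.0457). Its FDR was 0.147 without CMi-EV 1, 0.0851 without CMi-EV 2, 0.0842 without CMi-EV 3, 0.0651 without CMm-EV 1, 0.0626 without CMm-EV 2 and 0.121 without CMm-EV 3 (0.000996 to 0.147 over the alternatives), so this call ended without any of the 6 libraries. The groups did not overlap in these 4 DE miRNA, as in 44.5% of all tested.

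The remaining lists of miRNA gave no DE member. The miR-30 family had 0 higher and 0 lower of 7 tested with a median of 0.32, which was -0.23 with library size only. Of the miR-23/miR-27/miR-24 clusters 6 were tested, with a median of 0.64. MiR-27b-3p (log2 fold change 0.95 ± 0.25, FDR 0.0457) and miR-24-3p (log2 fold change 0.71 ± 0.19, FDR 0.0457) met the FDR but not the fold change, and missed the FDR too without any 1 of 5 libraries (FDR 0.000996 to 0.753 over the alternatives). MiR-15/16 (5 tested, median -0.81), miR-221/miR-222 (4, -0.22), miR-21 (2, 0.98), miR-10/miR-196 (2, 0.91) and miR-490 (2, -0.29) had no call either. The 1 tested member each of miR-199/miR-214, miR-126 and the blood-associated list, namely miR-199a-5p (log2 fold change -2.88 ± 2.31, FDR 0.479), miR-126-3p (log2 fold change -2.03 ± 1.24, FDR 0.332) and miR-486-5p (log2 fold change -1.13 ± 0.39, FDR 0.113), was not DE. MiR-199a-5p had no count in CMi-EV 1 and 2 and 758 CPM in CMi-EV 3, and without CMi-EV 3 it was DE in the other direction, with no count left in CMi-EV (FDR 0.0251, 0.00158 to 0.644 over the alternatives). No member of the miR-29 and miR-34 families, of the 14q32 cluster or of the miR-210 list was abundant enough to be tested.

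**Figure D2:**
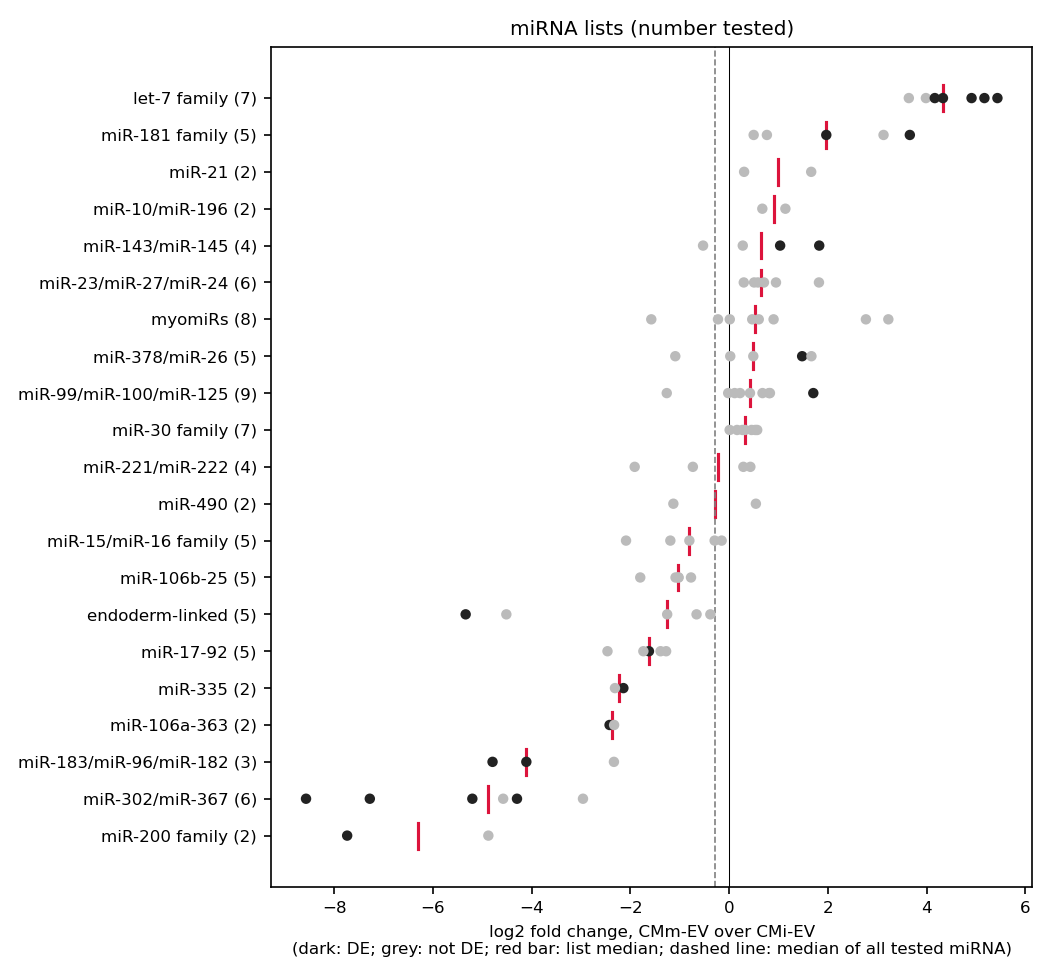
Log2 fold change (CMm-EV over CMi-EV) of each tested miRNA of the lists with at least 2 tested members, dark where DE and grey where not, at the bound where 1 group had no count, with the list median as a red bar and the median of all tested miRNA, -0.29, as a dashed line. The let-7 family, median 4.33, lies at 1 end, and the miR-302/miR-367 cluster, median -4.89, lies near the other. Some members, such as miR-302c-5p and let-7d-5p, were tested only through the group where they are high, which fixes their direction.

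In the plot of change against abundance, the DE miRNA of high abundance, miR-143-3p, miR-125a-5p and miR-92a-3p, changed by less than 2 on the log2 scale, while the largest changes belong to miRNA with few or no counts in 1 group. Folds can move with 1 library. Without CMm-EV 3 the log2 fold change was -7.09 for miR-375-3p, -6.47 for miR-302c-3p and -4.27 for miR-19b-3p. Without CMi-EV 3 it was 5.83 for miR-499a-5p and 1.21 for miR-122-5p, the latter with counts in every library. MiR-100-5p, miR-99b-5p, miR-1-3p, miR-26a-5p, miR-125b-5p, miR-99a-5p and miR-191-5p, the other 7 of the 10 most abundant miRNA, were not DE. MiR-191-5p was read at 34749, 29329.8 and 24364 CPM in CMi-EV and 13679, 25723 and 32934 CPM in CMm-EV (log2 fold change -0.29 ± 0.33, FDR 0.565), and miR-99b-5p at 119239, 77667 and 94466 CPM in CMi-EV and 79658, 174286 and 211405 CPM in CMm-EV (log2 fold change 0.68 ± 0.38, FDR 0.300).

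**Figure D3:**
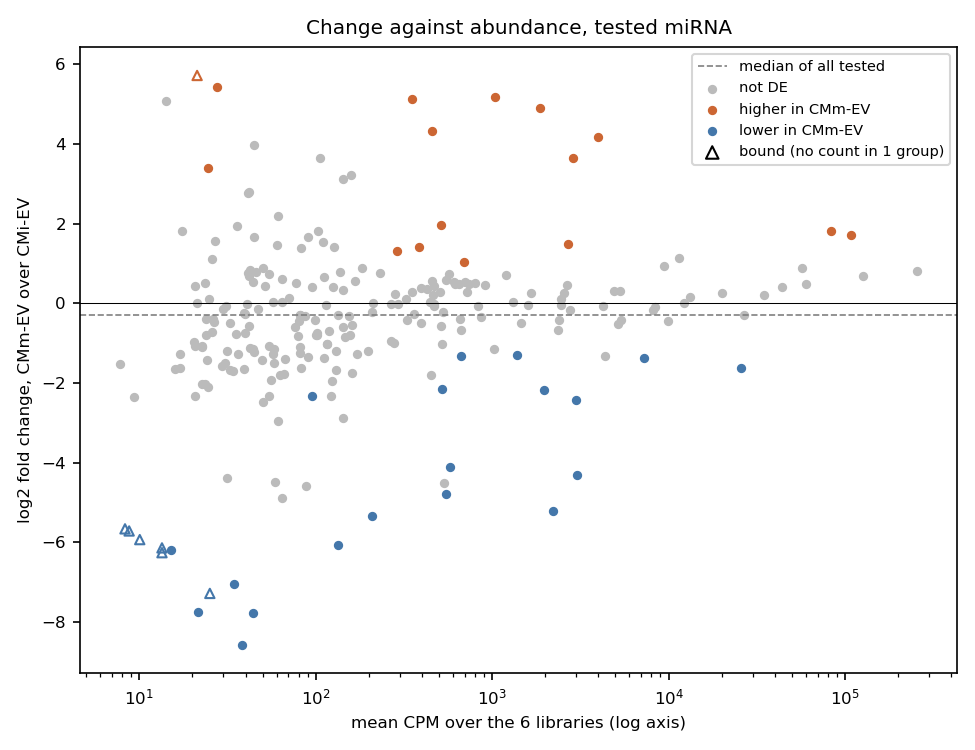
Log2 fold change (CMm-EV over CMi-EV) of the 247 tested miRNA against their mean CPM over the 6 libraries (log axis), with DE miRNA in orange (higher) and blue (lower) and bounds as open triangles where 1 group had no count. DE miRNA above 10000 CPM stay within 2 of 0, and the dashed line is the median of -0.29.

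The shares of the RNA classes were compared between groups, and none of the 5 differences passed adjustment. Of counts on the 5 RNA classes, miRNA took 70.7, 62.4 and 74.5% in CMi-EV and 76.9, 89 and 89.3% in CMm-EV. The difference of 15.8 percentage points had p = 0.1 in a 2-sided exact permutation test, the smallest p that 20 splits allow (0.167 adjusted over the 5 classes). Against the library totals behind the authors' RPM the difference was 16 points with overlapping groups (exact permutation p = 0.3). Fragments of gencode transcripts took 14.6, 18.5 and 12% in CMi-EV and 10.3, 4.57 and 5.17% in CMm-EV, and piRNA 7.1, 10.2 and 5.91% in CMi-EV and 3.01, 2.03 and 2.11% in CMm-EV. Both shares were lower in every CMm-EV library (exact permutation p = 0.1 each, 0.167 adjusted). Shares of tRNA (6.71, 8.18 and 6.78% in CMi-EV and 8.16, 3.99 and 3.19% in CMm-EV) and circular RNA (0.893, 0.645 and 0.828% in CMi-EV and 1.67, 0.449 and 0.265% in CMm-EV) overlapped.

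Dominance by a few miRNA was also measured. The 10 most abundant miRNA of each library held, as a share of miRNA counts, 74.9, 71.6 and 74% in CMi-EV and 79.5, 83.9 and 85.6% in CMm-EV, a difference of 9.48 points (exact permutation p = 0.1). The effective number of miRNA, the exponential of the Shannon entropy of the shares, was 22.3, 26.5 and 22.6 in CMi-EV and 18.5, 14.7 and 14.7 in CMm-EV. MiR-100-5p alone took 23.6, 18.7 and 25.8% in CMi-EV and 23.4, 28.4 and 25.1% in CMm-EV, with overlapping groups. TMM factors, which correct for such dominance, were 1.2, 1.33 and 1.17 in CMi-EV and 1.13, 0.768 and 0.621 in CMm-EV, lowest in CMm-EV 2 and 3. The part of this dominance in single calls was not tested beyond these scalings.

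**Figure D4:**
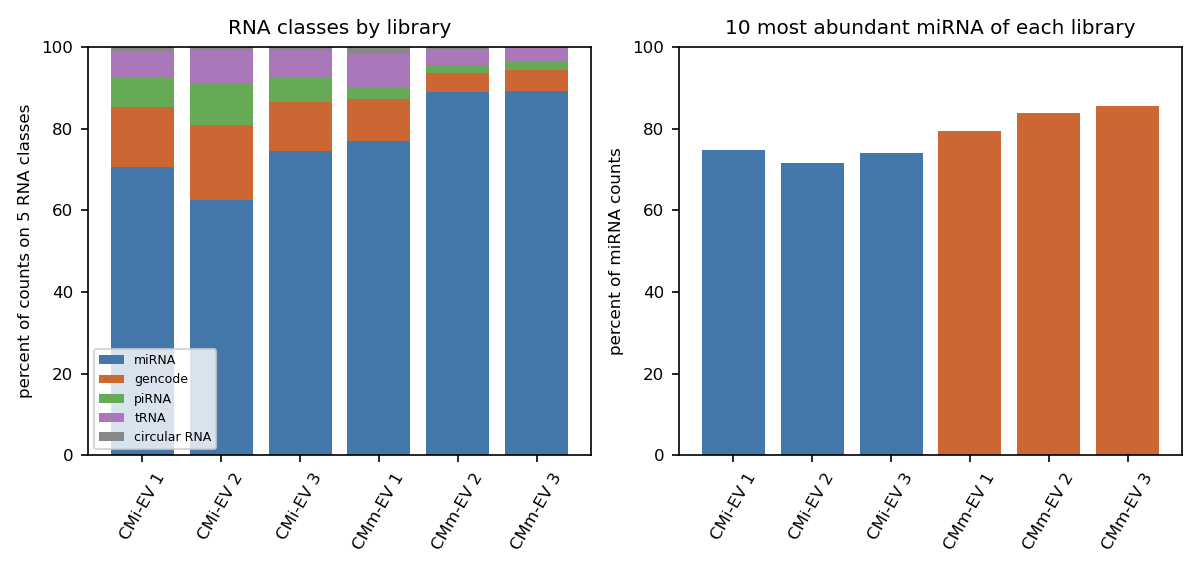
Left, percent of the counts on 5 RNA classes taken by each class in each library. Right, percent of miRNA counts in the 10 most abundant miRNA of each library (CMi-EV blue, CMm-EV orange), which reaches 74.9% at most in CMi-EV and 79.5% at least in CMm-EV.

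Markers of cell types were read in the same libraries. The 5 cardiomyocyte miRNA, all with counts and led by miR-1-3p, summed to 46074, 64364 and 17998 CPM in CMi-EV and 27819, 40198 and 167520 CPM in CMm-EV. Fragments of 8 cardiomyocyte genes, led by TTN, summed to 12766, 16588 and 13349 CPM in CMi-EV and 13600.5, 14171 and 10497 CPM in CMm-EV within the gencode class. Cardiomyocyte RNA was thus read in EV of both stages, and both sums overlapped between groups. The miRNA sum was mostly miR-1-3p, which was highest in CMm-EV 3. Of the 8 genes NPPA had no count in CMi-EV. The 6 pluripotency miRNA, led by miR-302b-3p, summed to 4772, 5719 and 3471 CPM in CMi-EV and 223, 104 and 88.5 CPM in CMm-EV. Of these, miR-367-3p and miR-372-3p had counts in CMi-EV 2 alone, 42 and 34, so nothing is read from their absence in CMm-EV. Of 5 pluripotency genes, POU5F1, TDGF1 and DNMT3B had no count in either group, and the sum of the others, led by LIN28A, was 149.8, 26 and 8.44 CPM in CMi-EV and 0, 0 and 0 CPM in CMm-EV. A longer list of 26 pluripotency features, 9 with a count, did have counts in CMm-EV. It summed to 149.8, 54.6 and 59.0 CPM in CMi-EV and 5.05, 52.9 and 14.9 CPM in CMm-EV. The 5 fibroblast and smooth muscle miRNA summed to 30572, 28450.2 and 54039 CPM in CMi-EV and 97812, 129759 and 165106 CPM in CMm-EV, nearly all of it miR-143-3p. The other 4 did not follow it. MiR-145-5p overlapped between groups, and miR-199a-3p, miR-199a-5p and miR-214-3p were highest in CMi-EV 3. The 5 genes of these cell types, led by COL1A1 and without COL3A1 and LUM in CMi-EV and COL1A2 in CMm-EV, overlapped at 179.7, 304 and 0 CPM in CMi-EV and 116, 217 and 159 CPM in CMm-EV.

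Other cell types had markers among the reads as well. The 2 endothelial miRNA, led by miR-126-3p, summed to 48.3, 56.3 and 61.6 CPM in CMi-EV and 0, 16.8 and 20.9 CPM in CMm-EV, and of their 3 genes PECAM1 had no count in any library and KDR had 57 counts in CMm-EV 3 alone. The 4 endoderm and liver miRNA, led by miR-192-5p, overlapped at 3301, 2956 and 6261 CPM in CMi-EV and 2061, 1755 and 3587 CPM in CMm-EV, while APOA1 and TTR had no count and AFP had 9 counts in CMm-EV 2 alone. Of 6 blood miRNA, led by miR-486-5p, the sum was 1799.9, 1773 and 632 CPM in CMi-EV and 613, 603 and 704 CPM in CMm-EV, with no count of miR-451a in CMi-EV and none of miR-223-3p, HBA1, HBA2 or HBB in any library. The neural miR-124-3p and miR-9-5p summed to 22, 16.1 and 56.6 CPM in CMi-EV and 0, 0 and 0 CPM in CMm-EV. The summed pluripotency, endothelial and neural miRNA and miR-143-3p thus did not overlap between the EV groups. Neither did 44.5% of the single tested miRNA, so nothing is read from it. MiR-126-3p was not DE (FDR 0.332), and the neural miR-9-5p had 0, 17 and 55 counts in CMi-EV. The part of these markers in the result was not tested.

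Transfer RNA fragments showed no DE feature. Of 277 tested tRNA, 0 were DE by edgeR's quasi-likelihood test (0% called, smallest FDR 0.0996). At an unadjusted p under 0.05 there were 54, 46 higher and 8 lower, and DESeq2 called 5. Without CMm-EV 1, 10 were DE, and without CMm-EV 2, 1. The files give tRNA by identifier and do not pair them with gene names. URS00004F0321_9606, the most abundant, was read at 111462, 133118 and 121520 CPM in CMi-EV and 118369, 144314 and 166470 CPM in CMm-EV within the class (log2 fold change 0.23 ± 0.20, FDR 0.595). URS000080E36F_9606, chosen after its values were seen, was read at 1141, 1544 and 1019 CPM in CMi-EV and 9115, 2876 and 7982 CPM in CMm-EV (log2 fold change 2.43 ± 0.44, FDR 0.106). Similar tRNA copies share reads, and the deposited counts split them.

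In the piRNA class, 1 of 12 tested features was DE (8.33%). This was piR-36173, read at 1619, 1088 and 1136 CPM in CMi-EV and 485, 294 and 291 CPM in CMm-EV within the class (log2 fold change -1.86 ± 0.61, FDR 0.0288). Its FDR was 0.141 without CMi-EV 1, 0.356 without CMi-EV 2, 0.0848 without CMi-EV 3 and 0.0832 without CMm-EV 3 (1.64e-07 to 0.401 over the alternatives), and without CMm-EV 2 there were 5 DE piRNA. Without CMi-EV 2 or CMi-EV 3 edgeR called 0, with 1 and 2 at an unadjusted p under 0.05. The class is dominated by piR-33043, at 860201, 676165 and 674859 CPM in CMi-EV and 679626, 675043 and 675148 CPM in CMm-EV (log2 fold change -0.12 ± 0.15, FDR 0.795), and piR-33044, at 439799, 292684 and 396160 CPM in CMi-EV and 188563, 204483 and 205680 CPM in CMm-EV (log2 fold change -0.91 ± 0.17, FDR 4.95e-05). The latter met the FDR but not the fold change, and its FDR was 0.435 without CMi-EV 1 and 0.569 without CMi-EV 2, with log2 fold changes of -0.50 and -0.52 (FDR 0.000183 to 0.569 over the alternatives).

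Among fragments of gencode transcripts, counted by gene and biotype, 42 of 443 tested features were DE (9.48%), 9 higher and 33 lower in CMm-EV. Of these, 5 of the higher had no count in CMi-EV and 28 of the lower had no count in CMm-EV, so most calls rest on presence in 1 group. Such features were tested only because all 3 libraries of the group that holds them had at least 10 counts, and this filter depends on the groups compared. With no filter 3 of 17206 features were DE, none of them among the 42. These are short fragments in EV and not levels of whole messenger RNA. The higher features included GATA6, a transcription factor of heart and endoderm, with no count in CMi-EV and 10, 35 and 21 counts in CMm-EV (at least 31.6-fold higher in CMm-EV, FDR 0.0189). PDE4D, a phosphodiesterase that degrades cAMP in cardiomyocytes, had no count in CMi-EV and 16, 47 and 20 counts in CMm-EV (at least 39.7-fold higher in CMm-EV, FDR 0.0189). SREBF2, the regulator of cholesterol synthesis, had no count in CMi-EV and 41, 32 and 10 counts in CMm-EV (at least 39.7-fold higher in CMm-EV, FDR 0.0189). Counts of these 3 in all CMm-EV libraries follow from the filter, and the groups did not overlap in 138 of the 443 tested features (31.2%). SLC25A29, a mitochondrial carrier of basic amino acids, was at least 28.2-fold higher in CMm-EV, FDR 0.0198, with an FDR of 0.0517 without CMi-EV 1 (0.000432 to 0.45 over the alternatives).

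LINC00929, a long noncoding RNA, was read at 12.8, 20.8 and 21.1 CPM in CMi-EV and 101, 933 and 1924 CPM in CMm-EV (log2 fold change 5.74 ± 0.98, FDR 0.019). PCSK2, a prohormone convertase, was the most abundant higher feature, at 396, 439 and 565 CPM in CMi-EV and 1051, 3893 and 5751 CPM in CMm-EV (log2 fold change 2.93 ± 0.64, FDR 0.0391), and its FDR was 0.0711 without CMi-EV 1, 0.0766 without CMi-EV 2, 0.0743 without CMm-EV 2 and 0.0764 without CMm-EV 3 (0.00058 to 0.45 over the alternatives). FRRS1L, which assists AMPA receptor assembly, was read at 2.14, 0 and 12.7 CPM in CMi-EV and 546, 156 and 159 CPM in CMm-EV (log2 fold change 5.92 ± 1.27, FDR 0.0391), with an FDR of 0.0784 without CMi-EV 1 and 0.0902 without CMm-EV 1 (5.86e-05 to 0.45 over the alternatives). The groups did not overlap in these 3, as in 31.2% of all tested features. The last higher feature, RN7SKP255, is a pseudogene of 7SK RNA that can share reads with its parent and is uncertain. Its FDR was 0.0411, and 0.222 without CMi-EV 1, 0.0805 without CMi-EV 2 and 0.342 without CMi-EV 3 (0.0417 to 0.659 over the alternatives).

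Among the lower features, IGF2, a fetal growth factor, had 61, 13 and 95 counts in CMi-EV and no count in CMm-EV (at least 39.2-fold lower in CMm-EV, FDR 0.049), with an FDR of 0.0675 without CMi-EV 1, 0.0623 without CMm-EV 1, 0.071 without CMm-EV 2 and 0.0621 without CMm-EV 3 (0.000178 to 0.45 over the alternatives). COL2A1, the collagen of cartilage, had 27, 126 and 16 counts in CMi-EV and no count in CMm-EV (at least 39.2-fold lower in CMm-EV, FDR 0.0391), with an FDR of 0.0504 without CMi-EV 1, 0.0629 without CMm-EV 2 and 0.053 without CMm-EV 3 (0.000199 to 0.45 over the alternatives). Neither had a count in CMm-EV. DOK4, a docking protein of receptor tyrosine kinases, was at least 65.4-fold lower in CMm-EV, FDR 0.0189, and GABBR1, a subunit of the GABA-B receptor counted here as a transcript of nonsense-mediated decay, was at least 44.6-fold lower in CMm-EV, FDR 0.0203. DDX6, a helicase of processing bodies, had 20, 16 and 25 counts in CMi-EV and 0, 1 and 0 counts in CMm-EV (pooled ratio of CMi-EV over CMm-EV 42.5, 95% counting interval 7.34 to 1704, FDR 0.0189), and SNORD24, a guide of ribosomal RNA methylation, had 30, 16 and 26 counts in CMi-EV and 0, 1 and 0 counts in CMm-EV (pooled ratio of CMi-EV over CMm-EV 50.1, 95% counting interval 8.71 to 2007, FDR 0.0189).

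Of 36 tested ribosomal protein features 3 were lower and 0 higher, beside 33 lower of all 443 tested, with a median log2 fold change of -1.40 against -0.10 over all tested features. RPS7, a protein of the small subunit, was lower both as protein coding feature, with 132, 198 and 58 counts in CMi-EV and 1, 0 and 0 counts in CMm-EV (pooled ratio of CMi-EV over CMm-EV 270.1, 95% counting interval 48.2 to 10696, FDR 0.0189), and as retained intron, so that 2 of the 3 come from 1 gene. The other, RPL10A, had no count in CMm-EV and an FDR of 0.0391, and 0.054 without CMm-EV 1, 0.0619 without CMm-EV 2 and 0.0536 without CMm-EV 3 (0.000781 to 0.45 over the alternatives). RPL10A and the protein coding feature of RPS7 were tested only through the CMi-EV libraries, which fixes their direction. Ribosomal protein genes have many pseudogenes and several biotypes that can share reads, and their counts are uncertain, as is that of GABBR1. Of 55 histone features with a count 3 were tested, and these 3 were lower. They were tested only through the CMi-EV libraries, which fixes their direction, so nothing is read from it for histones as a list. HIST1H4E had 115, 85 and 47 counts in CMi-EV and 1, 0 and 0 counts in CMm-EV (pooled ratio of CMi-EV over CMm-EV 172, 95% counting interval 30.6 to 6819, FDR 0.0189), and HIST1H3J and HIST1H2AM had no count in CMm-EV. Histone copies also share reads. Of 52 glycolysis features with a count 3 were tested, and of these LDHA was lower (at least 12.5-fold lower in CMm-EV, FDR 0.0189), beside 9.48% DE of all 443 tested features. LDHA was tested only through the CMi-EV libraries, which fixes its direction, so nothing is read from it for glycolysis as a list. PGK1 (log2 fold change -3.53 ± 1.38, FDR 0.245, or -7.95 without CMm-EV 3) and ALDOA (log2 fold change -0.55 ± 0.95, FDR 0.845) were not DE. Small nucleolar RNA had 0 higher and 2 lower of 31 tested, beside 9.48% DE of all 443 tested features, and a median of -0.20.

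Cardiac transcripts were read by list. Of 23 tested sarcomere features 0 were DE by edgeR, with a median of 0.02. TTN, the giant spring of the sarcomere and the most abundant of them, was read at 9044, 11536 and 10009 CPM in CMi-EV and 11554, 9646 and 7967 CPM in CMm-EV (log2 fold change -0.07 ± 0.39, FDR 0.947). MYH6, the atrial and fetal myosin heavy chain, was read at 1757, 2847 and 1552 CPM in CMi-EV and 516, 1598 and 1531 CPM in CMm-EV (log2 fold change -0.76 ± 0.57, FDR 0.623). The groups overlapped in both. ATP2A2, the calcium pump of the sarcoplasmic reticulum, was read at 62, 13 and 21.1 CPM in CMi-EV and 142, 401 and 129 CPM in CMm-EV and was not DE (log2 fold change 2.78 ± 0.92, FDR 0.18), and SLC8A1, the sodium-calcium exchanger, was not DE either (log2 fold change 0.15 ± 1.03, FDR 0.955). These are the 2 tested of the calcium list, with a median of 1.46. MEF2C, a transcription factor of cardiac muscle, was lower (at least 23.2-fold lower in CMm-EV, FDR 0.0189) and is named after its values were seen.

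Y RNA features were the most abundant of the gencode class. RNY4, a Y RNA bound by Ro60, was read at 80544, 135592 and 83103 CPM in CMi-EV and 56535, 85982 and 122131 CPM in CMm-EV (log2 fold change -0.18 ± 0.47, FDR 0.935), and the Rfam feature RF00019, which covers Y RNA too, at 291229, 445274 and 266957 CPM in CMi-EV and 154007, 255317 and 345681 CPM in CMm-EV (log2 fold change -0.41 ± 0.48, FDR 0.762). Y RNA genes and pseudogenes share reads, so that these values are not independent. Of 52 tested features of Y, vault, 7SL and 7SK RNA, 1 was higher, the pseudogene RN7SKP255, and 0 lower. This stands beside 9.48% DE of all 443 tested features, and the median of the 52 was -0.20. Of 8 spliceosomal RNA features 0 were DE, with a median of 1.28. RNU2, which shares reads with other features and is uncertain, was high in CMm-EV 3, at 29669, 26732 and 10135 CPM in CMi-EV and 9350, 19629 and 159289 CPM in CMm-EV (FDR 0.581). EV protein transcripts (2 tested, median 1.06) and FN1, the 1 tested feature of fibroblast and matrix genes (log2 fold change -2.94 ± 1.54, FDR 0.427), had no call. Lists of natriuretic peptides, fatty acid oxidation, pluripotency, endoderm and liver, endothelium and cell cycle genes had no feature with enough counts to be tested. Mitochondrially encoded and blood genes of the lists were not among the counted features, so nothing is read from them.

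The gencode calls depend on which features enter. Without CMi-EV 1, 2 or 3, 104, 115 and 201 features were DE, and 36, 40 and 41 of the 42 were among them. Without CMm-EV 1, 2 or 3, 107, 81 and 101 were DE, with 39, 37 and 38 of the 42. These fits tested between 535 and 831 features.

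**Figure D5:**
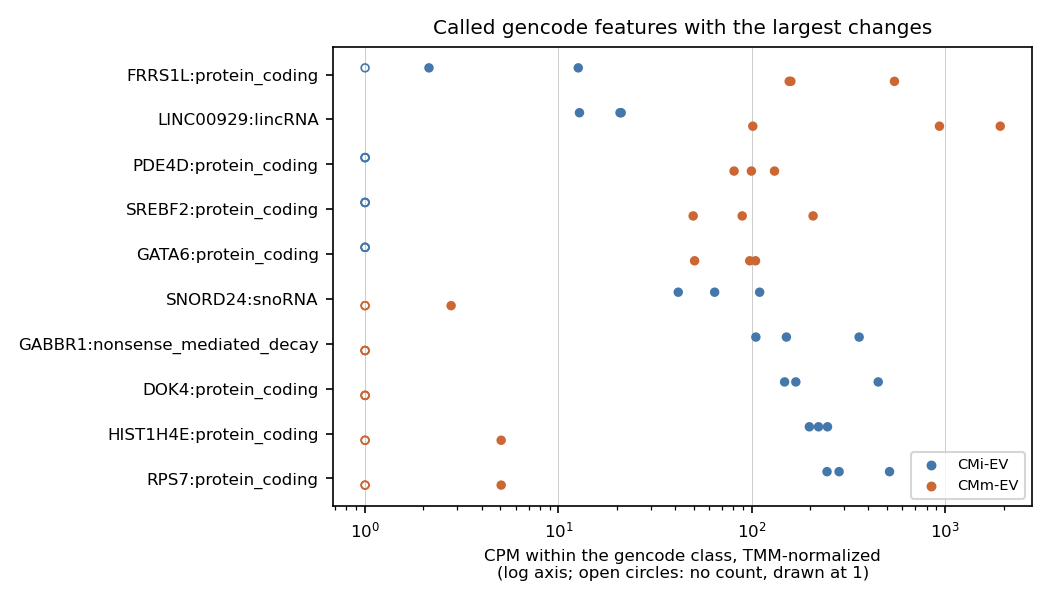
CPM within the gencode class (log axis) of the DE features with the largest changes, 5 in each direction, in each library, CMi-EV in blue and CMm-EV in orange, with open circles for libraries without a count. GATA6, PDE4D and SREBF2 have filled points in CMm-EV only, and DOK4 and GABBR1 in CMi-EV only.

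Of 121 tested circular RNA 4 were DE (3.31%), 3 higher and 1 lower in CMm-EV. All 4 had at least 10 counts in all 3 libraries of 1 group and 0 to 2 in those of the other, so that they were tested only through the group where they are high, and with no filter 0 of 3647 were DE. The files do not pair these identifiers with gene names. The lower one, hsa_circ_0139961, was read at 2518, 1736 and 1729.8 CPM in CMi-EV and 0, 59.2 and 62.7 CPM in CMm-EV within the class (pooled ratio of CMi-EV over CMm-EV 47.6, 95% counting interval 15.9 to 234, FDR 0.0176). Of the higher ones, hsa_circ_0110497 was read at 49.4, 48.2 and 64.1 CPM in CMi-EV and 1089, 829 and 752 CPM in CMm-EV (pooled ratio of CMm-EV over CMi-EV 16.8, 95% counting interval 5.48 to 83.5, FDR 0.00178) and hsa_circ_0133771 had no count in CMi-EV and 30, 27 and 45 counts in CMm-EV (at least 27.2-fold higher in CMm-EV, FDR 0.0176). The remaining higher one had an FDR of 0.0263, and 0.0679 without CMi-EV 1, 0.0522 without CMi-EV 2 and 0.0827 without CMi-EV 3 (6.34e-05 to 0.504 over the alternatives). Without CMi-EV 3, 0 circular RNA were DE by edgeR, with 17 at an unadjusted p under 0.05 and an FDR of 0.0827 for each of the 4, and without CMm-EV 3 the FDR of hsa_circ_0139961 was 0.0675 (6.08e-06 to 0.504 over the alternatives of the 3 named). Without CMi-EV 1, CMi-EV 2, CMm-EV 1, CMm-EV 2 and CMm-EV 3 there were 11, 8, 8, 15 and 8 DE circular RNA. The most abundant, hsa_circ_0001446, was read at 54616, 42638 and 47858 CPM in CMi-EV and 32913, 97494 and 133138 CPM in CMm-EV and was not DE (log2 fold change 0.86 ± 1.20, FDR 0.825).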

How the data were processed

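Small RNA of EV preparations was sequenced, and 6 libraries were used, 3 of CMi-EV and 3 of CMm-EV, grouped by their labels. The authors aligned reads to hg38 with the exceRpt pipeline and deposited an expected count for each miRNA, tRNA, piRNA, gencode feature and circular RNA, with reads that match several features divided among them. The authors also deposited RPM values of miRNA, whose library totals served as another denominator. The authors' table for this pair of groups holds signal values, TMM-normalized CPM of 303 miRNA made with edgeR 3.24.0, and was used as another filter. The other 6 libraries were not used here except in 1 alternative.

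Expected counts were rounded to whole numbers and tested with edgeR 4.0.16 (R 4.3.3), with TMM factors within each class and Benjamini-Hochberg adjustment over the features tested in it. A miRNA entered the test when all 3 libraries of CMi-EV or all 3 of CMm-EV held 5 CPM or more, and a feature of another class when they held 10 counts or more. SE come from the fitted weights and the quasi-dispersion. Shares were compared by 2-sided exact permutation tests over 20 splits. Where a group had no count, folds are bounds against 3 counts over the group. Counting intervals are 95% intervals of the pooled ratio. Figures were drawn with matplotlib 3.10.9, and tables were made in Python 3.11.15 with pandas 2.3.3, scipy 1.17.1 and numpy 2.4.6.

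Alternatives were DESeq2 1.42.0 size factors, library size only, other filters, DESeq2, edgeR's exact test, all 12 libraries, the replicate number as a block, and each library left out. Named are up to 15 DE miRNA in each direction by size of change, the 10 most abundant, and up to 4 members of each of 31 lists. In the other classes these are up to 8 DE features in each direction, the 5 most abundant, and up to 4 members of each of 18 gencode lists. Of features known by identifier alone, at most 2 in each direction are named. Cell type markers were set as a list of their own. Chosen after their values were seen are the other DE miRNA (miR-130b-5p, miR-148a-3p, miR-148b-3p, miR-455-3p and miR-500a-3p), members of families or clusters named beside DE ones (let-7b-5p, let-7g-5p, miR-92b-3p, miR-99b-3p, miR-125a-3p and miR-506-3p), MEF2C, RN7SKP255, RPL10A and URS000080E36F_9606. Members and lists were chosen with earlier results of these data known. Depth was 984868 to 6272456 miRNA counts a library. Sequences and coordinates are from RefSeq and GENCODE on GRCh38.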

Additional observations from a re-analysis of the deposited data

How the results depend on the processing

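None of the 41 DE miRNA changed direction under the 14 alternatives other than the replicate block. The count was 27 with filterByExpr and 27 over the miRNA of the authors' table, where more miRNA were tested, 17 with the replicate block, and 20 to 60 with 1 library left out. DE tRNA numbered 2 with library size only, 21 without filter, 5 by DESeq2 and 0 to 10 with 1 library left out. DE piRNA numbered 0 with library size only, without filter and with the block (edgeR, with 4, 9 and 2 at an unadjusted p under 0.05), and 0 to 5 with 1 library left out. DE gencode features numbered 3 without filter, where 17206 were tested, 0 with the block (53 at an unadjusted p under 0.05) and 81 to 201 with 1 library left out. DE circular RNA numbered 0 without filter (114 at an unadjusted p under 0.05), 1 with the block and 0 to 15 with 1 library left out. Beyond the number of features tested, the cause was not tested.

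The block treats equal replicate numbers as pairs. Deviations from the group means of libraries with the same number correlated across miRNA with r of -0.11, -0.09 and -0.06, so the numbers do not show a pairing, and the block also uses up degrees of freedom.

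Of 1365 fits of named miRNA under alternatives, 1181 kept direction and side of the threshold, 33 gained a call, 28 changed sign and the rest lost the call, all 28 in miRNA that are not DE. With library size only, log2 fold changes became negative for miR-125b-5p (-0.16), miR-145-5p (-0.31), miR-181a-2-3p (-0.10), miR-21-5p (-0.29), miR-222-3p (-0.38), miR-222-5p (-0.19), miR-23a-3p (-0.067), miR-26a-5p (-0.064), miR-26b-5p (-0.59), miR-30a-3p (-0.053), miR-30a-5p (-0.23), miR-30b-5p (-0.088), miR-30e-3p (-0.027), miR-490-3p (-0.074), miR-99a-5p (-0.38) and miR-99b-5p (-0.000482), and the median over the tested miRNA moved from -0.29 to -0.91. With the block the log2 fold change of miR-199a-5p was 4.77. With 1 library left out, ranges that cross 0 were -0.41 to 1.33 for miR-1-3p, -1.16 to 1.21 for miR-122-5p, -0.96 to 0.12 for miR-16-5p, -0.58 to 0.00400 for miR-191-5p, -3.37 to 9.59 for miR-199a-5p, -0.067 to 0.63 for miR-222-3p, -0.20 to 1.00 for miR-222-5p and -0.20 to 0.20 for miR-26b-5p. The cause was not tested. Of 405 list medians, 379 moved by less than the spread between replicates. The difference in miRNA share was 12.4 to 19.9 points and that in the share of the 10 most abundant miRNA 8.19 to 11.2 points with 1 library left out.

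With 3 libraries a group, permutation cannot give a p under 0.1. CMm-EV 1 has the least depth, and a count of 0 there sets the weakest limit on a miRNA. Day, medium and culture age differ together between the groups, and vesicle yield and purity per library were not analysed here.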
